A study of Homo sapiens with 24 samples.

Results

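The MYC, MAX and MXD network was taken as 10 gene symbols, MYC, MYCN, MAX, MXD1, MXD3, MXD4, MXI1, MNT, MLX and MLXIP, and all 10 were found among the 35587 symbols measured in each cell line. RNA came from MOLM14 and OCI-AML2, established lines of human acute myeloid leukaemia (AML). Each line was kept for 24 h with the vehicle DMSO, with AZ2 or with ARM165, in 6 groups of 4 libraries, and no genotype change was stated for any group. The study's title concerns PI3K gamma and AKT signalling and a heterobifunctional degrader, a kind of molecule that brings its target protein to a ubiquitin ligase, but the labels state no dose and leave unsaid whether AZ2 or ARM165 is that molecule. Nor do they say whether the 4 libraries of a group came from separate cultures, so p-values reflect only how far these libraries vary among themselves, which may be technical. RNA was taken in bulk, in which fewer cells of a type and less RNA per cell cannot be told apart.

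MYC is a basic helix-loop-helix leucine zipper transcription factor that binds DNA only as a pair with MAX, and the pair activates genes of growth and ribosome production. The MXD proteins, MXI1 and MNT also pair with MAX, bind the same E-box sites, and recruit SIN3 and histone deacetylase corepressors, so that MAX is shared between activators and repressors. MLX is a second hub protein, which pairs with the glucose-sensing factor MondoA (MLXIP) and with some of the repressors. MYC is an oncogene product in many leukaemias, and in normal myeloid cells MYC is known to give way to MXD1 as cells mature.

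The E-box bound by these factors is CACGTG, which reads the same on both strands, and the RefSeq promoter windows of the members were searched for it. The windows run from 250 bases before a gene's start to 50 after it (GRCh38.p14), and 12 windows covered 9 of the 10 genes. MYC had no window among them, so the motif counts do not cover MYC. The motif was in 3 of the 12 windows, 1 each for MXD4, MNT and MLX, against 7.26% of all 35116 windows of that length. It began 238 bases before the start in MXD4, 193 in MNT and 50 in MLX. The related letters CACGCG, searched on both strands, were in 2 windows (MXD3, and 1 of the 3 windows of MXI1), against 11.4% of all windows. The MXD1 window held neither. The 250 bases before the start are shown 5′ to 3′ on the gene's strand for the 3 genes with the motif, in capitals, and for MXD1, the member with the largest ARM165 change on average over the lines. They are MXD4 at chr4:2262110-2262359, minus strand, MNT at chr17:2401061-2401310, minus strand, MLX at chr17:42566850-42567099, plus strand, and MXD1 at chr2:69914859-69915108, plus strand.
MXD4: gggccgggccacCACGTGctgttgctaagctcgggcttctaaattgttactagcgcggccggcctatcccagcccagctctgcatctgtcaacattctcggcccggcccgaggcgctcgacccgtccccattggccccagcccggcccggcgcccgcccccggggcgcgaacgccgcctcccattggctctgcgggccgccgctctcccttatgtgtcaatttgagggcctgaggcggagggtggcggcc
MNT: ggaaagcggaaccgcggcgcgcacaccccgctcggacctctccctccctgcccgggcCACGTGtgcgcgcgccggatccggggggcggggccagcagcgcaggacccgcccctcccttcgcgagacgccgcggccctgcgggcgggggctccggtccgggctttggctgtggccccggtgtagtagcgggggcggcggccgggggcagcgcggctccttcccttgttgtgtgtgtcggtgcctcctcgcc
MLX: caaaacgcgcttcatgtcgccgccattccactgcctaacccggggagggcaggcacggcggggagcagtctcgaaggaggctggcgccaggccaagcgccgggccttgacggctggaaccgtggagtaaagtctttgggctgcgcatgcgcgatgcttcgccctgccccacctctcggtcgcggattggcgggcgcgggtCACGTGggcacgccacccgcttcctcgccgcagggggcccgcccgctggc
MXD1: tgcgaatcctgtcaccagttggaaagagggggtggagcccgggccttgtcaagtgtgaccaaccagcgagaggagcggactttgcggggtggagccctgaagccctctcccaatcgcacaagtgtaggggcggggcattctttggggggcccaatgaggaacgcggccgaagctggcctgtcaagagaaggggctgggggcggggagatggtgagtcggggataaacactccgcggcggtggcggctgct
A match describes the letters in the window and is not a measured binding site.

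With ARM165, MYC RNA fell and MXD1 and MXI1 RNA rose in both lines, and MAX, the partner they share, fell by far less. In MOLM14, 8 of the 9 members tested changed, 3 higher (MXD1, MXI1 and MLXIP) and 5 lower (MYC, MAX, MXD3, MNT and MLX), and MXD4 did not pass. In OCI-AML2, 7 of 9 changed, 3 higher (MXD1, MXI1 and MXD4) and 4 lower (MYC, MAX, MXD3 and MLX), and MNT and MLXIP did not pass. A change was called in limma at a Benjamini-Hochberg adjusted p under 0.05 over all genes tested. By that rule 69.5% of 15288 genes were called in MOLM14 (35.5% higher and 34.0% lower) and 65.8% of 15377 in OCI-AML2 (34.2% higher and 31.6% lower). A call was therefore the common outcome for any gene with ARM165, and the sizes of the changes say more about the members than the count does. The median absolute log2 change over all genes was 0.63 in MOLM14 and 0.66 in OCI-AML2. Over the 9 members tested it was 0.96 in MOLM14 and 0.44 in OCI-AML2, above that of all genes only in MOLM14. The groups of libraries did not overlap for 7 of the 9 members in each line, against 63.8% of genes in MOLM14 and 60.5% in OCI-AML2.

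**Figure D1:**
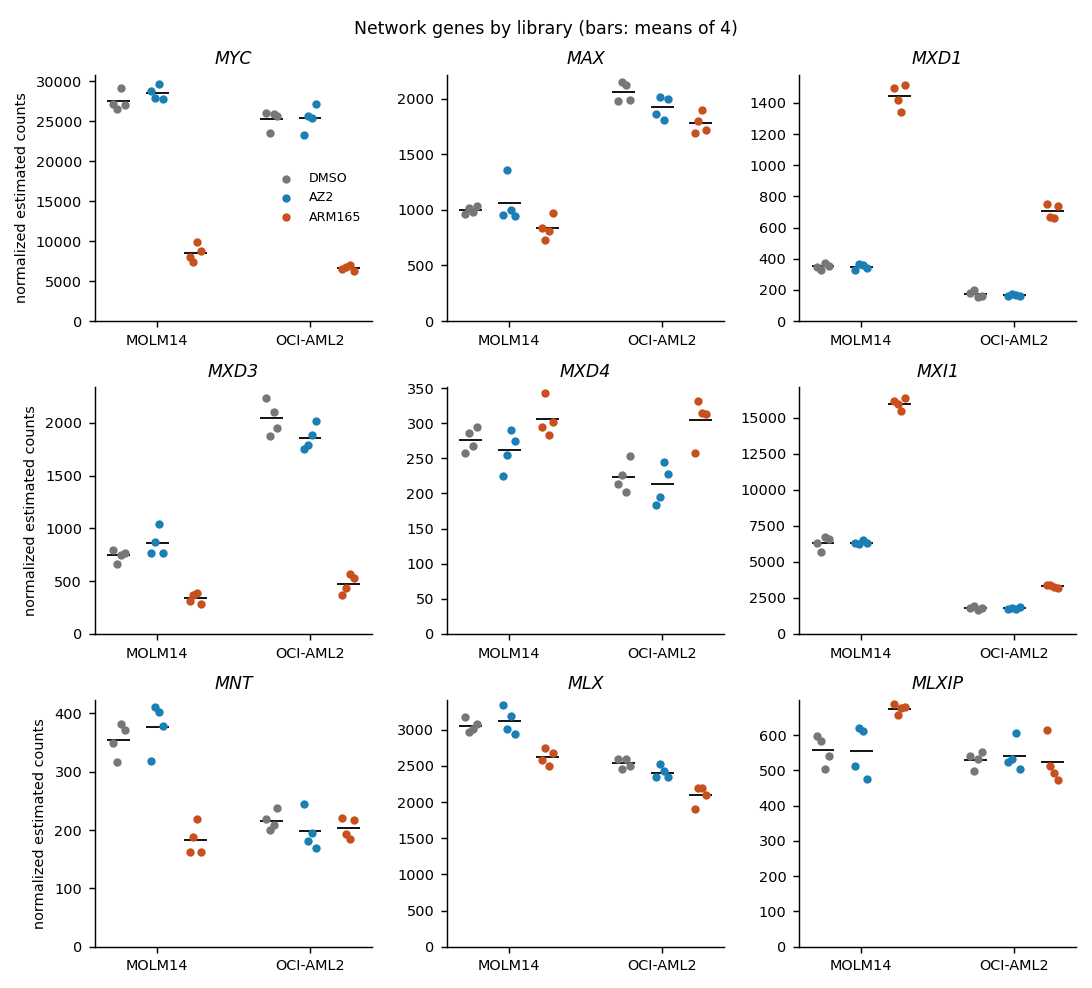
Value of each network gene in each library, in normalized estimated counts (vertical axis from 0), by line and treatment. Points are libraries and horizontal bars are means of 4. MYC is low and MXD1 and MXI1 are high with ARM165 in both lines, while DMSO and AZ2 libraries lie at like heights.

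MYC was measured at 27219, 26573, 29227 and 27070 normalized estimated counts in the 4 MOLM14 libraries with DMSO, and at 8004, 7353, 9849 and 8747 with ARM165. All 4 ARM165 libraries lay below all 4 DMSO libraries, and the mean fell 3.25-fold, from 27522 ± 1170 to 8488 ± 1071 (SD, n = 4). The log2 change was -1.705 ± 0.07 (SE, on the log2(value + 1) scale used throughout; limma, adjusted p = 8.58e-12), and 89.3% of all genes tested changed by less in either direction. In OCI-AML2, MYC was at 26040, 23534, 25874 and 25691 with DMSO and at 6487, 6813, 6968 and 6321 with ARM165. Again no library overlapped, and the fall was 3.8-fold (-1.93 ± 0.06, limma adjusted p = 2.12e-13), past that of 91% of genes. One DMSO library of OCI-AML2, replicate 2, stood below the other 3, and without it the change was -1.96 (adjusted p = 1.23e-12).

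MYCN, the paralogue of MYC best known from neuroblastoma, was listed at 0 in 22 of the 24 libraries. The 2 others were AZ2 libraries, MOLM14 replicate 3 at 4.66 and OCI-AML2 replicate 4 at 5.89. MYCN did not reach the minimum of 10 in 4 libraries and was not tested, so that 9 of the 10 members entered the fits.

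MAX, the common partner, was at 963, 1014, 985 and 1031 with DMSO in MOLM14 and at 839, 726, 813 and 975 with ARM165. The highest ARM165 library lay above the lowest DMSO library, so the groups overlapped. MAX was called lower (-0.26 ± 0.11, limma adjusted p = 0.0475), just inside the threshold. That call did not hold when a single library was left out in 8 of 12 cases: without DMSO replicates 1 to 4 the adjusted p was 0.0603, 0.086, 0.0712 and 0.0948, without AZ2 replicate 3 it was 0.0538, and without ARM165 replicates 1 to 3 it was 0.0716, 0.144 and 0.0871. In OCI-AML2 MAX was at 1980, 2145, 2123 and 1983 with DMSO and at 1689, 1801, 1897 and 1718 with ARM165. There the groups did not overlap, and the mean fell from 2058 ± 88.5 to 1777 ± 93.4 (-0.21 ± 0.06, limma adjusted p = 0.006). In both lines the change of MAX was small, with 22.2% and 17.6% of all genes changing by less.

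MXD1, a MAX-bound repressor whose RNA is known to rise as myeloid cells mature, had the largest change of the members on average over the lines. In MOLM14 it was at 346, 329, 373 and 352 with DMSO and at 1493, 1420, 1340 and 1514 with ARM165. In OCI-AML2 it was at 180, 196, 152 and 163 with DMSO and at 750.5, 666, 661 and 738 with ARM165. Every ARM165 library was more than 3 times as high as every DMSO library of its line. The rises were 4.12-fold in MOLM14 (2.04 ± 0.07, limma adjusted p = 2.24e-12) and 4.07-fold in OCI-AML2 (2.02 ± 0.11, adjusted p = 1.65e-10). Of all genes, 92.9% and 92.1% changed by less.

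MXI1, a repressor of the same family and long known as a MAX interactor, was the most abundant repressor RNA of the network per kilobase in MOLM14. It was at 6330, 5657, 6713 and 6554 with DMSO in that line and at 16128, 15956, 15449 and 16367 with ARM165. The lowest ARM165 library lay far above the highest DMSO library, and the rise was 2.53-fold (1.34 ± 0.05, limma adjusted p = 2.87e-12). OCI-AML2 had MXI1 at 1808, 1970, 1667 and 1788 with DMSO and at 3391, 3419, 3244 and 3173 with ARM165. The groups again stood apart, with a 1.83-fold rise (0.87 ± 0.06, limma adjusted p = 3.7e-09). Of all genes, 82.1% changed by less than MXI1 in MOLM14 and 61.9% in OCI-AML2.

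MXD3, the family member known to be expressed in cycling cells during DNA replication, fell, as MYC did. In MOLM14 it was at 800, 664, 748 and 762 with DMSO and at 310, 369, 386 and 287 with ARM165. The OCI-AML2 values were 2238, 1873, 2102 and 1954 with DMSO and 371, 438, 567 and 531 with ARM165. The groups did not overlap in either line. The falls were 2.2-fold in MOLM14 (-1.14 ± 0.11, limma adjusted p = 2.72e-07) and 4.29-fold in OCI-AML2 (-2.11 ± 0.11, adjusted p = 1.76e-10). The fall in OCI-AML2 was the largest change among the 9 members there.

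MXD4, the repressor with the E-box farthest from its start, was at 257, 286, 267 and 295 with DMSO in MOLM14 and at 295, 343, 283 and 302 with ARM165. These groups overlapped, and the change of 0.14 had a 95% interval of -0.08 to 0.37 (limma adjusted p = 0.245). OCI-AML2 had MXD4 at 214, 226, 202 and 253 with DMSO and at 257, 331, 314 and 314 with ARM165. The groups lay side by side without overlap, with the lowest ARM165 library just above the highest DMSO library. MXD4 rose 1.36-fold there (0.44 ± 0.13, limma adjusted p = 0.0075), a call lost with quantile normalization (0.27, adjusted p = 0.0756).

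MNT, a broadly expressed repressor that can pair with MAX or MLX, was at 350, 317, 381 and 372 with DMSO in MOLM14 and at 163, 187, 219 and 163 with ARM165. No library overlapped, and MNT fell 1.94-fold (-0.96 ± 0.12, limma adjusted p = 3.8e-06). The values of MNT in OCI-AML2 were 219, 199.6, 208 and 237 with DMSO and 221, 192, 185 and 217 with ARM165. Those groups lay within each other's range, and the change of -0.08 had a 95% interval of -0.37 to 0.20 (limma adjusted p = 0.604), which does not reach the size of the fall in MOLM14.

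MLX, the second hub protein, was at 3180, 2962, 3003 and 3082 with DMSO in MOLM14 and at 2583, 2748, 2496 and 2676 with ARM165. OCI-AML2 libraries had MLX at 2599, 2451, 2595 and 2501 with DMSO and at 1909, 2197, 2192 and 2103 with ARM165. The ARM165 libraries were all below the DMSO libraries in both lines, by a small amount. The changes were -0.22 ± 0.05 in MOLM14 (limma adjusted p = 0.00116) and -0.27 ± 0.06 in OCI-AML2 (adjusted p = 0.000567), and 18.7% and 22.4% of genes changed by less.

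MLXIP, which encodes MondoA, was at 598, 585, 505 and 540 with DMSO in MOLM14 and at 688, 658, 676 and 679 with ARM165. The groups did not overlap and MLXIP rose 1.21-fold (0.28 ± 0.09, limma adjusted p = 0.013). In OCI-AML2 it was at 541, 498, 532 and 552 with DMSO and at 616, 513, 494 and 472 with ARM165. There the ARM165 libraries spread around the DMSO libraries, with a change of -0.03 and a 95% interval of -0.23 to 0.18 (adjusted p = 0.83).

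With AZ2, no member changed in either line. In MOLM14, 0 of 9 members were called, as were 0% of all genes (0 of 15288), and in OCI-AML2 0 of 9, against 0.111% of all genes (17 of 15377). No member had an unadjusted p under 0.05 either, by the same limma fits, and no member's AZ2 and DMSO libraries stood fully apart, against 4.43% of genes in MOLM14 and 2.67% in OCI-AML2. MYC was at 28788, 27944, 29686 and 27773 with AZ2 in MOLM14 and at 23293, 25701, 25407 and 27223 in OCI-AML2. These libraries lay around the DMSO values, and the changes of MYC were 0.05 (95% interval -0.10 to 0.20) and 0.01 (-0.11 to 0.13). MXD1 was at 330, 368, 360 and 340 with AZ2 in MOLM14 and at 163, 175, 166 and 163 in OCI-AML2. Its 95% intervals ran from -0.16 to 0.15 in MOLM14 and from -0.28 to 0.18 in OCI-AML2, far from the change of about 2 with ARM165. For MXI1 they were narrower, from -0.10 to 0.11 and from -0.13 to 0.12. MXD3 had the largest AZ2 change of a member in MOLM14, 0.21 (95% interval -0.04 to 0.45, limma adjusted p = 0.886), and MNT in OCI-AML2, -0.14 (-0.42 to 0.15, adjusted p = 0.996).

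**Figure D2:**
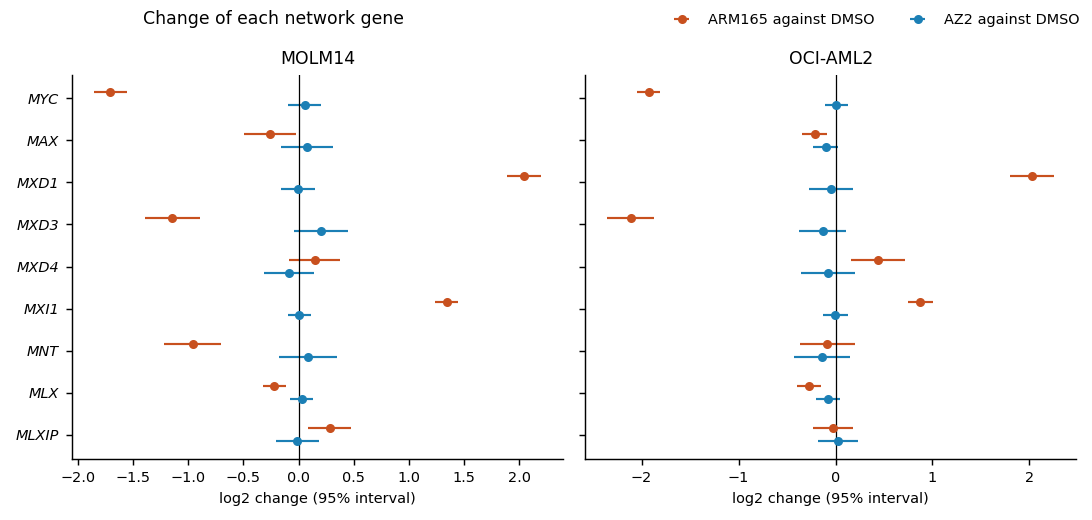
Log2 change of each network gene (horizontal axis) with ARM165 and with AZ2, each against DMSO, with 95% intervals from the limma fits, by line. Every AZ2 interval includes 0, and ARM165 moves MYC and MXD3 to the left and MXD1 and MXI1 to the right in both lines.

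The libraries with ARM165 were also compared directly with those with AZ2, at doses that are not stated and so not known to match. In MOLM14, 3 members were higher with ARM165 and 5 lower, and 70.1% of all genes were called. In OCI-AML2, 3 were higher and 3 lower, against 65.8% of genes. MYC differed by -1.76 ± 0.07 in MOLM14 (limma adjusted p = 5.85e-12) and by -1.93 ± 0.06 in OCI-AML2 (adjusted p = 2.16e-13). MXD1 differed by 2.04 ± 0.07 and 2.07 ± 0.11 in that order (adjusted p = 2.15e-12 and 1.29e-10). The ARM165 and AZ2 libraries were fully apart for 7 members in MOLM14 and 6 in OCI-AML2, against 63.6% and 61.4% of genes. MAX in OCI-AML2 did not pass here (-0.11, 95% interval -0.24 to 0.02, adjusted p = 0.117), but was called with quantile normalization (-0.17, adjusted p = 0.0153) and with median centring (-0.24, adjusted p = 0.00222). MXD4 in MOLM14 was at 0.23 ± 0.11 (adjusted p = 0.0688), and was called without AZ2 replicate 3 (0.28, adjusted p = 0.0395).

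The balance of activator to repressor RNA was described by the ratio of MYC to each other member within a library. The size of such a ratio depends on transcript lengths, so only its movement within a line is read, and no test was made. MYC to MXD1 stood at 78.7 ± 1.61 with DMSO, 81.9 ± 4.58 with AZ2 and 5.92 ± 0.99 with ARM165 in MOLM14 (mean ± SD, n = 4). In OCI-AML2 the same ratio was 148 ± 21.5, 153 ± 10.9 and 9.5 ± 1.04. Both lines thus had an order of magnitude less MYC RNA per MXD1 RNA with ARM165, and the ARM165 libraries of each line lay below all others. MYC to MXI1 was 4.37 ± 0.24 with DMSO and 0.53 ± 0.08 with ARM165 in MOLM14, and 14.1 ± 1.51 and 2.01 ± 0.10 in OCI-AML2. MYC to MAX was 27.6 ± 1.69 and 10.2 ± 1.37 in MOLM14, and 12.3 ± 0.99 and 3.74 ± 0.08 in OCI-AML2. MYC to MXD3 moved least, from 37.2 ± 2.84 to 25.4 ± 4.3 in MOLM14 and from 12.4 ± 0.63 to 14.3 ± 2.69 in OCI-AML2, where the DMSO and ARM165 libraries overlapped.

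**Figure D3:**
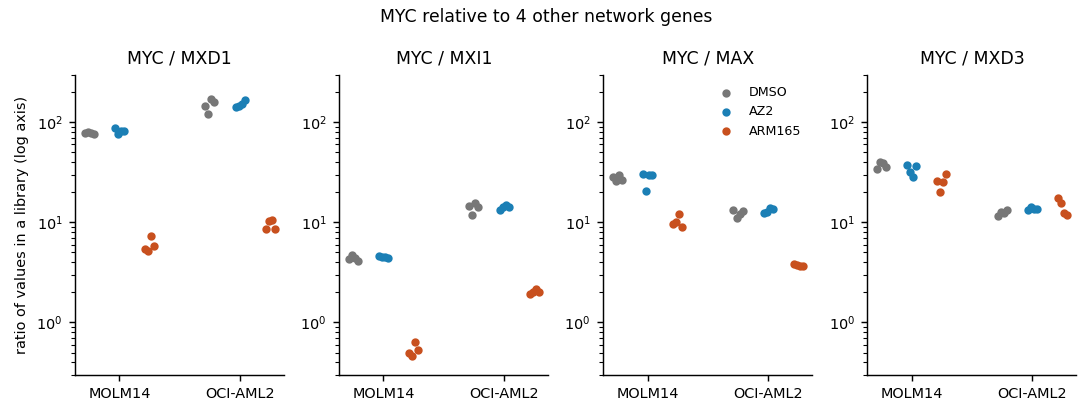
Ratio of MYC to MXD1, MXI1, MAX and MXD3 within each library (log axis), by line and treatment; points are libraries. The ratio to MXD1 drops from 76.9 to 80.8 with DMSO to 5.18 to 7.35 with ARM165 in MOLM14, while the ratio to MXD3 stays within 11.6 to 17.5 in the DMSO and ARM165 libraries of OCI-AML2.

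Levels of different members were compared only per kilobase, dividing the normalized estimated counts by the mean length of a gene's coding transcripts in GENCODE release 29. With DMSO, MYC was first in both lines, at 17220 per kilobase in MOLM14 (lowest to highest library 16630 to 18290) and 15820 in OCI-AML2 (14730 to 16300). MXI1 followed in MOLM14 at 3205 (2872 to 3407) and then MLX at 1248 (1209 to 1298) and MAX at 835 (805 to 862), each outside its neighbours' spread. At the low end of that line, MXD4 at 68.1 (63.4 to 72.8) and MXD1 at 62.7 (58.9 to 66.9) overlapped. In OCI-AML2 the next after MYC were MAX at 1720 (1655 to 1793), MXD3 at 1329 (1219 to 1456), MLX at 1036 (1001 to 1061) and MXI1 at 918 (846 to 999.9), in ranges that did not touch. With ARM165, MXI1 at 8109 (7842 to 8308) stood above MYC at 5312 (4601 to 6163) in MOLM14. In OCI-AML2 MYC remained first at 4160 (3955 to 4360), with MXI1 next at 1678 (1611 to 1736). The first 2 places were the same with the merged exon length in place of the mean transcript length, except in OCI-AML2 with DMSO. There the order after MYC became MLX at 979, MXD3 at 620, MAX at 502 and MXI1 at 446. That order therefore depends on the length used. MXD1 came last of the expressed members with DMSO in both lines by mean transcript length, and was in place 5 in MOLM14 and 6 in OCI-AML2 with ARM165.

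The change with ARM165 differed between the lines for 3 members, tested as OCI-AML2 minus MOLM14 in 1 limma fit of all 24 libraries. MXD3 fell further in OCI-AML2 (difference -0.97 ± 0.17, adjusted p = 5.68e-05), MXI1 rose further in MOLM14 (difference -0.47 ± 0.07, adjusted p = 1.68e-05), and MNT fell further in MOLM14 (0.88 ± 0.18, adjusted p = 0.000296). These 3 of 9 members compare with 42.4% of 14287 genes called for the same difference. The rise of MXD1 was of like size in both lines, with a difference of -0.01 and a 95% interval of -0.26 to 0.23 (adjusted p = 0.938). For MLX the difference was -0.05 (-0.20 to 0.09) and for MAX 0.05 (-0.22 to 0.32), neither of which passed (adjusted p = 0.582 and 0.806). The fall of MYC was larger in OCI-AML2 by 0.22 on the log2 scale in these libraries (difference -0.22 ± 0.09, 95% interval -0.41 to -0.03) and did not pass (adjusted p = 0.0549). It passed with a stricter filter, a minimum of 50 in 4 libraries. The MYC difference also passed without MOLM14 DMSO replicate 3 (adjusted p = 0.0393), MOLM14 ARM165 replicate 1 (0.0427) or 2 (0.00769), OCI-AML2 DMSO replicate 2 (0.0307), AZ2 replicate 1 (0.0474) or ARM165 replicate 3 (0.046). MLXIP also did not pass (-0.31 ± 0.13, adjusted p = 0.0638), and passed without OCI-AML2 ARM165 replicate 1 (-0.39, adjusted p = 0.0163). For AZ2 against DMSO, 0 of 9 members differed between the lines, against 0.0280% of genes, and none had an unadjusted p under 0.05 in limma.

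The genes nearest to MYC and to MXD1 were found by the root mean square distance over the 4 changes (AZ2 and ARM165 against DMSO in each line), among 11280 genes with a mean of at least 50 in both lines. Nearest to MYC were UBE2T (distance 0.0337), POLR3K (0.0347), CCNE2 (0.038) and NRARP (0.0441). UBE2T encodes a ubiquitin-conjugating enzyme of the Fanconi pathway, POLR3K a subunit of RNA polymerase III, CCNE2 a G1/S cyclin, and NRARP a regulator of Notch signalling. UBE2T, for example, had ARM165 changes of -1.70 in MOLM14 and -1.89 in OCI-AML2. Nearest to MXD1 were CYLD (0.0578), IL10RA (0.0635), NCOA3 (0.0793) and CALHM2 (0.0825), of which CYLD encodes a deubiquitinase and IL10RA the interleukin 10 receptor chain that binds the cytokine. CYLD had ARM165 changes of 1.97 and 2.00 in the same order.

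A further set of 4 genes of the wider network was measured. ZBTB17, which encodes MIZ1, a factor through which MYC represses genes, rose in both lines, from 480 ± 24.4 to 781 ± 66 in MOLM14 (0.70 ± 0.10, limma adjusted p = 9.26e-06) and from 864 ± 80.4 to 1467 ± 82.5 in OCI-AML2 (0.77 ± 0.08, adjusted p = 5.67e-07). MYCL, the third MYC paralogue, fell in MOLM14 from 411 ± 19.8 to 296 ± 44.2 (-0.48 ± 0.13, adjusted p = 0.00332). In OCI-AML2 MYCL had a change of 0.19 (95% interval -0.12 to 0.51, adjusted p = 0.258), and the difference between the lines passed (0.68, adjusted p = 0.00623). MGA, a large MAX-binding repressor, passed in neither line (0.19 ± 0.09, adjusted p = 0.065, and 0.04 ± 0.08, adjusted p = 0.72). In MOLM14 MGA passed without ARM165 replicate 1 (0.25, adjusted p = 0.0198) or replicate 3 (0.22, adjusted p = 0.047), and with quantile normalization (0.20, adjusted p = 0.0342). MLXIPL, which encodes the MLX partner ChREBP, was at 24.7, 8.32, 0.76 and 7.15 with DMSO in MOLM14 and at 40.5, 59.2, 30.8 and 11.7 with ARM165. These low, overlapping values were called higher (2.05 ± 0.71, adjusted p = 0.018), but not without DMSO replicate 3 (1.34, adjusted p = 0.0591) or ARM165 replicate 2 (1.74, adjusted p = 0.062). In OCI-AML2 MLXIPL did not pass (0.31 ± 0.34, adjusted p = 0.434). Its difference between the lines did not pass (-1.74 ± 0.82, adjusted p = 0.0949), but did without MOLM14 DMSO replicate 1 (-2.32, adjusted p = 0.0168) or ARM165 replicate 4 (-2.17, adjusted p = 0.0339).

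Genes commonly given as activated by MYC mostly fell with ARM165. In MOLM14, 31 of 35 tested fell, 2 rose and 2 did not pass, with a median log2 change of -1.49 against 0.03 over all genes. In OCI-AML2, 29 of 34 fell, 4 rose and 1 did not pass, with a median of -1.28 against 0.03. Over all genes 34.0% and 31.6% fell. TFRC, the transferrin receptor gene, changed by -2.10 ± 0.05 in MOLM14 and -1.72 ± 0.09 in OCI-AML2. NOP56, which encodes a protein of box C/D ribonucleoproteins, changed by -1.61 ± 0.04 and -1.48 ± 0.05, and MTHFD1, a folate enzyme gene, by -1.53 ± 0.04 and -1.65 ± 0.06. NME1 (-2.13 and -2.14), LDHA (-1.80 and -1.67) and PTMA (-1.94 and -1.84) fell as well, and these 3 have close copies in the genome with which reads may be shared. All of these were called by limma, with adjusted p at or below 1.12e-10. Leaving out MOLM14 DMSO replicate 2, ARM165 replicate 3 or ARM165 replicate 4 took the count of rises in MOLM14 from 2 to 1.

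Genes given as repressed by MYC were split. In MOLM14, 7 of 10 tested rose and 3 fell (median 1.04). In OCI-AML2, 5 rose, 4 fell and 1 did not pass (median 0.51). Over all genes 35.5% and 34.2% rose. CDKN1A, which encodes the cell cycle inhibitor p21 and is also a target of p53, rose from 373 to 17106 in OCI-AML2 (5.52 ± 0.09) and from 6985 to 45344 in MOLM14 (2.70 ± 0.05). GADD45A, a growth arrest gene, rose by 2.48 ± 0.11 in MOLM14 and 2.62 ± 0.10 in OCI-AML2. FTH1, the ferritin heavy chain gene, which has many processed copies, rose by 3.59 ± 0.05 and 3.48 ± 0.06. These 3 were called by limma in both lines, with adjusted p at or below 1.8e-11.

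Of the genes known to be driven by MondoA and MLX on glucose, 4 of 4 rose with ARM165 in MOLM14. In OCI-AML2, 2 of 3 rose and 1 fell. Over all genes, 35.5% rose in MOLM14, and 34.2% rose and 31.6% fell in OCI-AML2. With so few genes, no result about the list is read from these counts. TXNIP, which encodes a brake on glucose uptake, was at 7170, 7272, 7628 and 7632 with DMSO in MOLM14 and at 32448, 32290, 33203 and 37391 with ARM165. It rose by 2.19 ± 0.05 there and by 2.51 ± 0.06 in OCI-AML2 (limma adjusted p = 1.16e-14 and 4.07e-14), from 2519 ± 237 to 14318 ± 552. KLF10, a zinc finger factor gene, rose by 1.95 ± 0.07 in MOLM14 and 2.93 ± 0.07 in OCI-AML2 (limma adjusted p = 1.92e-12 and 3.07e-14). HK2, the hexokinase gene, rose in MOLM14 (0.43 ± 0.05, adjusted p = 4.73e-07) and fell in OCI-AML2 (-0.58 ± 0.05, adjusted p = 6.03e-08). The difference between the lines passed for all 3, at 0.32 for TXNIP, 0.98 for KLF10 and -1.01 for HK2 (limma adjusted p = 0.00148, 3.43e-08 and 1.4e-11), and for TXNIP it was lost with quantile normalization (0.10, adjusted p = 0.207). ARRDC4, an arrestin-domain paralogue of TXNIP, rose in MOLM14 from 1293 ± 72.2 to 3013 ± 359 (1.21 ± 0.08, adjusted p = 1.87e-09) and was listed at 0 in 11 of 12 OCI-AML2 libraries and at 0.77 in the other.

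**Figure D4:**
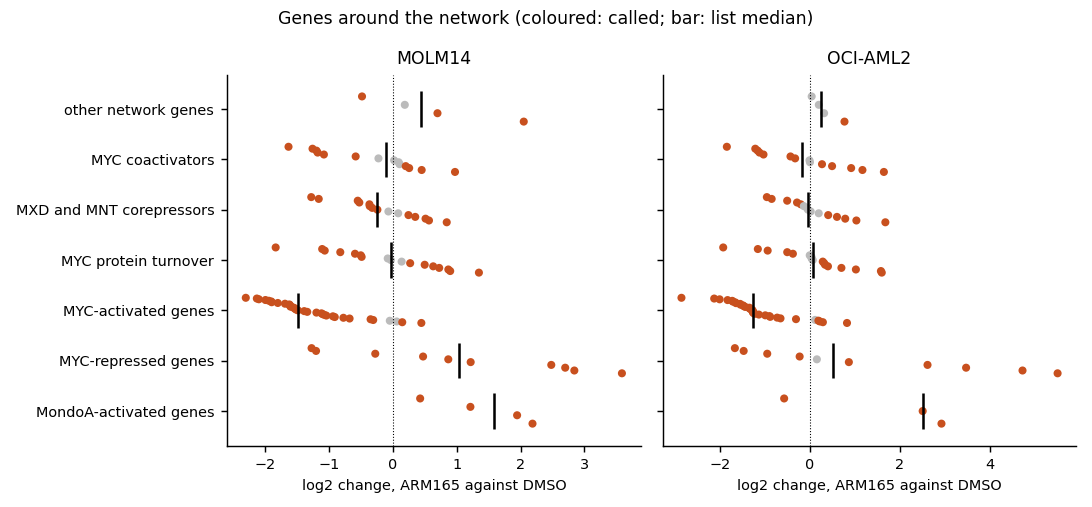
Log2 change with ARM165 against DMSO (horizontal axis) of each tested gene in 7 lists of genes around the network, by line. Points are genes, orange where called by limma and grey where not, and black bars are list medians. The median of the MYC-activated genes lies at -1.49 in MOLM14 and -1.28 in OCI-AML2.

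The cofactors of the network moved in both directions. Of 14 coactivator genes of MYC, 4 rose, 6 fell and 4 did not pass in MOLM14 (median -0.10), and 5 rose, 7 fell and 2 did not pass in OCI-AML2 (median -0.17). Over all genes, 69.5% were called in MOLM14 and 65.8% in OCI-AML2, and no result about the cofactors as a group is read from these counts or from those of the corepressor and turnover genes below. KAT2A, the acetyltransferase gene, changed by -1.63 ± 0.07 and -1.86 ± 0.06 in MOLM14 and OCI-AML2, and WDR5, the gene of a chromatin-bound partner of MYC, by -1.18 ± 0.05 and -1.22 ± 0.06. RUVBL1, an ATPase gene of chromatin remodelling complexes, fell by 1.26 and 1.13 on the log2 scale. CDC73, a gene of the PAF1 elongation complex, rose by 0.97 ± 0.07 and 1.65 ± 0.06. Of 15 corepressor genes of the MXD and MNT proteins, 5 rose, 8 fell and 2 did not pass in MOLM14 (median -0.24), and 5 rose, 5 fell and 5 did not pass in OCI-AML2 (median -0.05). The histone-binding subunit gene RBBP7 changed by -1.16 ± 0.05 and -0.96 ± 0.08, and its paralogue RBBP4 by -1.28 ± 0.06 and -0.86 ± 0.08. The corepressor scaffold gene NCOR1 moved the other way, by 0.51 ± 0.05 and 0.78 ± 0.07.

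Genes whose products set the stability of the MYC protein were likewise mixed, with 7 higher, 7 lower and 3 not called of 17 in MOLM14 (median -0.03) and 8, 5 and 4 in OCI-AML2 (median 0.06). SKP2, which encodes a ubiquitin ligase subunit that acts on MYC, changed by -1.84 ± 0.06 in MOLM14 and -1.94 ± 0.09 in OCI-AML2. AURKA, a mitotic kinase gene, changed by -1.07 ± 0.06 and -1.17 ± 0.06. The named cofactor and turnover genes were called by limma in both lines, with adjusted p at or below 3.08e-07. With AZ2, 0 genes of any of these lists were called in either line.

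The libraries held an estimated 35.4 M to 59.0 M reads each, and 18889 to 19699 symbols had a value above 0. All 11 myeloid markers checked were at a mean of 10 or more with DMSO in both lines. Their summed level was 63280 to 67160 with DMSO, 63140 to 66750 with AZ2 and 43520 to 50670 with ARM165 in MOLM14. In OCI-AML2 it was 108100 to 117500, 107800 to 116100 and 60260 to 62860 in that order. The markers did not move as one: with ARM165, 4 rose and 5 fell of 10 tested in MOLM14, and 2 rose and 6 fell of 11 in OCI-AML2. Calls in both directions were common to all genes, of which 35.5% rose and 34.0% fell in MOLM14. In OCI-AML2, 34.2% of all genes rose and 31.6% fell. LYZ, the lysozyme gene, had the largest share of the lower sum in MOLM14, at 20319 with DMSO and 2677 with ARM165, while PTPRC, a pan-leukocyte marker, rose from 2392 to 6229 there. Of 17 markers of other cell types, 4 reached a mean of 10 with DMSO in each line. KRT5, CD3E, HBA1 and PPBP were at 0 in all MOLM14 DMSO libraries, as were KRT19, CD3E, CD3D, MS4A1 and PPBP in those of OCI-AML2. Their summed level was 1147 to 1348 with DMSO, 1018 to 1343 with AZ2 and 560 to 813 with ARM165 in MOLM14, and 441 to 556, 447 to 486 and 192 to 219 in OCI-AML2. The part of these marker levels in the changes of the network genes was not tested.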

How the data were processed

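Stranded poly(A) libraries were prepared from column-purified RNA with a TruSeq kit, per the labels' protocols. Reads were assigned to transcripts with kallisto, whose version is not stated, per the submitters' processing notes. The genome build, annotation and scaling are not given in the sources used here. The authors deposited signal values, which are normalized estimated counts for each gene symbol, as 1 table of 12 libraries for each line. Whether both tables share a scaling is not stated, so levels were compared only within a line. Only 15.1 to 15.8% of nonzero values came within 0.01 of a whole read number, so counts were not recovered and no count model was run.

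Each value entered as log2(value + 1), which understates changes of low genes, and a gene was kept in a line if 4 or more libraries reached 10. One mean per group was fitted to the 12 libraries of a line with limma 3.58.1 (R 4.3.3), using empirical Bayes moderation with a trend of variance on level. Residual degrees of freedom were 9, and prior ones 5.63 (MOLM14) or 5.67 (OCI-AML2). Differences between lines came from 1 fit of 24 libraries over 14287 genes (18 residual, 5.32 prior). P-values were adjusted by Benjamini-Hochberg over all genes tested and called under 0.05, and intervals are 95% for single genes. The median SE of a change was 0.10 in MOLM14 and 0.12 in OCI-AML2. Groups came from the labels, and 0 columns were left out.

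The network members and gene lists were chosen with earlier results of these data known, so no list was tested. Every member is named, as are all genes of the wider network and MondoA lists, and from each longer list the 3 called genes with the smallest adjusted p in each line. Some genes that these rules select are not reported here. The nearest genes were the 4 with the smallest distance. Alternatives covered the pseudocount, filter, scaling, variance trend, libraries in the fit, the replicate number and leaving out each library. Plots were made in Python 3.11.15 with matplotlib 3.10.9.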

Additional observations from a re-analysis of the deposited data

Results flagged for a closer look

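The change with ARM165 differed between the lines by limma's test of the difference (OCI-AML2 minus MOLM14, log2 scale) for MXD3 (-0.97), MXI1 (-0.47) and MNT (0.88) among the network members. Among the other genes named in full it differed for MYCL (0.68), TXNIP (0.32), KLF10 (0.98) and HK2 (-1.01).

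In 7 of 99 groups of 4 libraries, 1 library lay so far from the other 3 that its gap, divided by the range of the group, passed Dixon's 95% critical value. Chance gives about 1 in 20 such groups. Among the members these were MYC in OCI-AML2 with DMSO (0.861), where replicate 2 was at 23534 and the others at 25691 to 26040, and MAX in MOLM14 with AZ2 (0.868), where replicate 2 was at 1359 and the others at 943 to 998. The 5 others were MGA in OCI-AML2 with DMSO (0.952), ZBTB17 with ARM165 in MOLM14 (0.888) and in OCI-AML2 (0.841), HK2 in MOLM14 with AZ2 (0.916) and HK2 in OCI-AML2 with ARM165 (0.946). In each of these 5 the highest library stood apart.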

How the results depend on the processing

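Over 72 results (9 members in 8 comparisons), 66 kept their call under every alternative run, and of 1728 values 1699 kept it, 12 lost it, 17 gained it and 0 reversed. The count of members whose ARM165 change differed between the lines was 3, but 5 with quantile normalization and 5 with median centring, where MYC and MLXIP were added; the cause was not tested. Leaving out 1 library gave 3 to 4. MAX in MOLM14 lost its ARM165 call without the filter (adjusted p = 0.0932), without the variance trend (0.081) and with the replicate block (0.0665). Scaling moved the median change of all genes by at most -0.12, for median centring in OCI-AML2. Summed values of the MOLM14 libraries were 37302667 to 41186885 with ARM165 and 43273961 to 44963255 with DMSO. In OCI-AML2 these sums overlapped, at 42169866 to 43781315 and 42850505 to 45397057. The part of the lower sums in the small falls of MLX and MAX in MOLM14 was not tested. Deviations of libraries with the same replicate number correlated at -0.03 to 0.06 in MOLM14 and -0.04 to 0.05 in OCI-AML2. These values show no strong shared deviation, and they cannot show whether the samples were paired. With the replicate block the members called with ARM165 against DMSO were 7 in MOLM14 and 7 in OCI-AML2, and 4 differed between the lines, MYC being added (adjusted p = 0.0352). Under it MGA in MOLM14 was called higher with ARM165 (0.19, adjusted p = 0.0472). The same alternatives were added for the other lists after seeing the data: of 1972 values 1955 kept their call or count, 3 lost it, 6 gained it, 8 moved and 0 reversed. With median centring the MYC-activated genes called higher were 1 in MOLM14 and 2 in OCI-AML2. Values were low for MYCN, at 0 in 22 of 24 libraries, and for MLXIPL in MOLM14 with DMSO, at 0.76 to 24.7. The part of depth in these low values was not tested.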
